A study of Mus musculus with 4 samples.

Results

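Cholinergic transmission genes were followed in mouse whole brain across a senescence-accelerated strain, its control strain and a dietary supplement. The 10 genes were Slc5a7, Chat, Slc18a3, Ache, Chrna4, Chrna7, Chrnb2, Chrm1, Chrm2 and Chrm3, and they were found through the transcript accessions of the array's probes. They had 13 probes, of 16543 named genes and 41174 probes in all. The 3 RNAs were from SAMP8 mice whose feed held added whale meat extract (WME), SAMP8 mice on the low-safflower oil (LSO) control diet, and SAMR1 mice on the LSO diet, all at 50 weeks of age. SAMP8 is a senescence-accelerated mouse strain known for early deficits in learning and memory, and SAMR1 is the senescence-resistant strain used beside it. For both strains the labels give the genetic background as AKR/J, with outbreeding to an unknown line suspected. The diets ran for 26 weeks from 24 weeks of age, and behaviour was tested at 49 weeks for 8 days before the brains were taken. Sex, and the number of mice behind each RNA and whether they were pooled, are not given in the sources used here.

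Acetylcholine is made from choline and acetyl-CoA by choline acetyltransferase, loaded into vesicles, released, and broken down in the synaptic cleft by acetylcholinesterase. The choline is carried back into the terminal by a high-affinity transporter, a step that limits how fast new transmitter is made. Released acetylcholine acts on nicotinic receptors, which are ion channels of several subunits, and on muscarinic receptors, which are coupled to G proteins. In the brain the cells that make it include basal forebrain neurons that project to cortex and hippocampus, striatal interneurons, medial habenula neurons and cranial motor neurons, and the system is known for its part in attention and memory.

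The RNAs were set against each other on 2-colour arrays, where each spot gives 1 signal in Cy5 and 1 in Cy3. SAMP8 WME was hybridised with SAMP8 LSO on 2 arrays with the dyes exchanged, and SAMP8 LSO with SAMR1 LSO on 2 others, so SAMP8 LSO entered both comparisons. The arrays of a pair were taken to carry the same 2 RNAs and count as 1 replicate. The 4 SAMP8 LSO measurements of both pairs were likewise taken to be of 1 RNA. Both are assumptions. On that basis an SD over 2 arrays is technical error only, there was no test of any difference between groups of mice, and no p-value is given. A ratio is the log2 of one RNA over the other after normalisation, and a probe or gene was called when it was at least 1.5-fold (0.585 on the log2 scale) in 1 direction on both arrays. A gene was measured when at least 1 RNA of the pair was well above background on both arrays. A gene with several probes was counted by the one with the highest mean signal over all 4 arrays. Each transcript without a gene name was counted as a gene of its own, which made 33269 genes and unnamed transcripts. Shares and ranks among all measured genes are over both kinds. All 10 genes were measured in each comparison by that probe, as were 12 of the 13 probes. No spot was saturated, and 81.5 to 85.6% of probe spots were well above background per array and dye. All 8 pan-neuronal markers examined, among them Rbfox3, Snap25 and Map2, were well above background in all 8 channel measurements. So were all 6 muscle and skin markers, so signal above background did not by itself identify the tissue.

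Across all genes, the strain comparison held more differences than the diet comparison. SAMP8 LSO was called higher than SAMR1 LSO for 0.969% and lower for 0.494% of 26937 measured genes, and the SD of the mean log2 ratio over genes was 0.20. SAMP8 WME was called higher than SAMP8 LSO for 0.0563% and lower for 0.03% of 26661 genes, with an SD over genes of 0.083. The median SD between the arrays of a pair was 0.087 for the strain pair and 0.086 for the diet pair, so a typical diet ratio was no larger than the technical error.

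Among the cholinergic probes, 2 of the 12 measured were called higher and 1 lower in SAMP8 LSO than in SAMR1 LSO. Slc5a7, the choline transporter, was higher, and Chrna4, a nicotinic subunit, had 1 probe higher and 1 lower. Counted by gene, 2 of 10 were called higher and 0 lower, with Chrna4 standing as higher through the probe A_51_P104487. That probe was the brighter one over all 4 arrays but not on the strain arrays, where its mean log2 level was 8.87 against 9.57 for A_52_P350750. Counted by the probe brightest on the strain arrays, a choice made after seeing the data, 1 gene, Slc5a7, was higher and 1, Chrna4, lower. By that count 0.954% of 26934 measured genes were higher and 0.501% lower. With the median over a gene's probes only Slc5a7 was called, and Chrna4 had −0.54. At a 2-fold threshold 0 of the 10 genes were called. In the diet comparison 0 of 10 were called in either direction. The other 8 genes had mean log2 ratios between −0.20 and 0.16 in the strain comparison over their 9 measured probes. Under other scalings the range was wider, with Chrm2 at −0.43 on the scanner software's processed signals. Fewer cells of a type and less RNA per cell cannot be told apart in RNA of a whole brain.

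**Figure D1:**
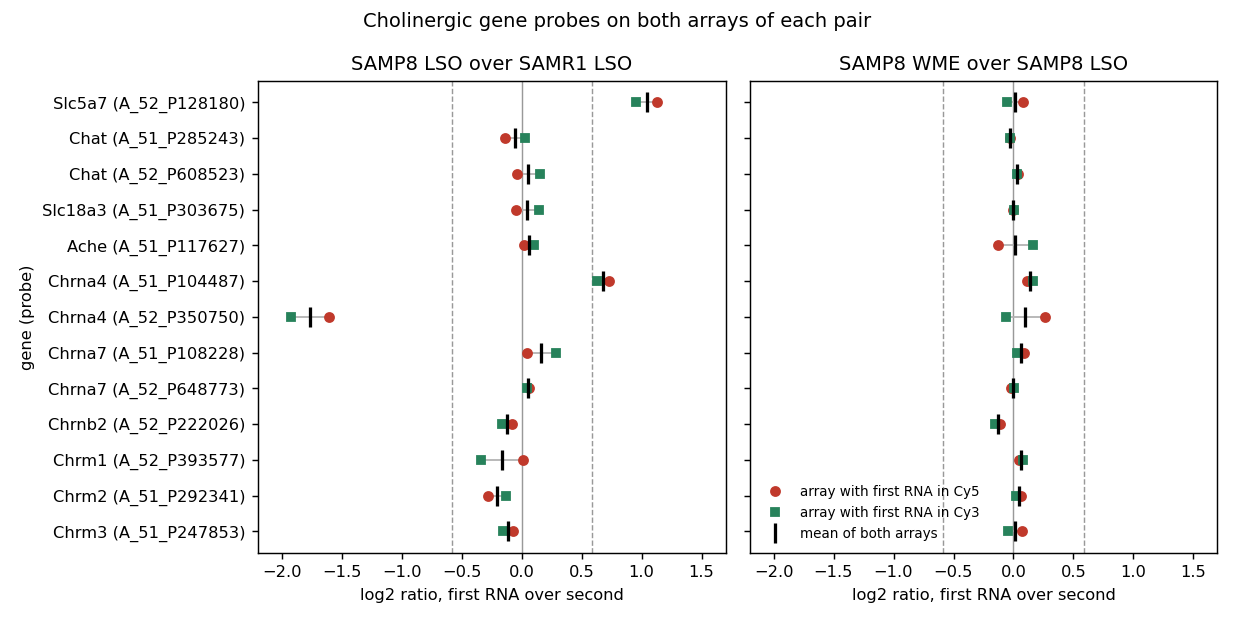
Log2 ratio of each of the 13 probes on each array (points) with the mean of both arrays (bar mark), for SAMP8 LSO over SAMR1 LSO and for SAMP8 WME over SAMP8 LSO; dashed lines mark 1.5-fold. Slc5a7 and the Chrna4 probe A_51_P104487 lie right of the upper line on both strain arrays, the other Chrna4 probe lies far left at −1.60 and −1.92, and no probe passes a line on both diet arrays.

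The presynaptic genes that make, load and recover acetylcholine were examined first. Slc5a7, Chat and Slc18a3 are used together by cholinergic neurons, and the coding sequence of Slc18a3 lies inside the Chat gene. Their promoters are shown because 1 of these 3 genes differed between the strains and the other 2 did not pass the threshold. The sequences are from RefSeq on GRCm38.p6, 300 bases around each start, 5′ to 3′ on the gene's strand. Capitals mark E-boxes (CANNTG) and GC boxes (GGGCGG, either strand). They cover chr17:54298985-54299284 for Slc5a7, chr14:32465860-32466159 for Chat and chr14:32464801-32465100 for Slc18a3, all on the minus strand.
Slc5a7: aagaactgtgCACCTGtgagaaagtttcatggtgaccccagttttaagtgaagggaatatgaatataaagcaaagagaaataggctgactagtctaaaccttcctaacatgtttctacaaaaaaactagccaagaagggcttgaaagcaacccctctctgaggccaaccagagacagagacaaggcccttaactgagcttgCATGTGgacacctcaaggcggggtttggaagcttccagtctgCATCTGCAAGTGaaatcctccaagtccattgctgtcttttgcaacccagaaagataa
Chat: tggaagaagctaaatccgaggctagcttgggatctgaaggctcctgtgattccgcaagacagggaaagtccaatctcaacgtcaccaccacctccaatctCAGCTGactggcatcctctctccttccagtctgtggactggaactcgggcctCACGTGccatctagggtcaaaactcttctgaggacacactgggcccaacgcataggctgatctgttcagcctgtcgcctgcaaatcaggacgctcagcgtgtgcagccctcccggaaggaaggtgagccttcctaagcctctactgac
Slc18a3: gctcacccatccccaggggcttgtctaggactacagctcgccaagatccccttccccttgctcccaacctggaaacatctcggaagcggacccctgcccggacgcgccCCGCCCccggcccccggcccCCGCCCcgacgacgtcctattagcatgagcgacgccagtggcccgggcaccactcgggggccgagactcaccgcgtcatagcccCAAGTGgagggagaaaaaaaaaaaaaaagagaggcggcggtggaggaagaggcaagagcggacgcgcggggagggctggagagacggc

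The Slc5a7 window held 4 E-boxes, no GC box and 1 CpG at 44.7% GC. The Chat window held 2 E-boxes, no GC box and 10 CpG at 55.7% GC. The Slc18a3 window held 1 E-box, 2 GC boxes and 27 CpG at 67.0% GC. Of 32851 mouse promoter windows of this length, 72.3% held an E-box and 35.7% a GC box on either strand. None of these 3 windows held the cAMP response element TGACGTCA, present in 1.79% of all windows, or the homeodomain core TAATTA, present in 5.29%. A match describes the letters only, and no binding was measured.

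Slc5a7, which encodes the high-affinity choline transporter of cholinergic terminals, was higher in SAMP8 LSO than in SAMR1 LSO on both arrays. Its normalised log2 level was 9.62 and 9.51 in the 2 measurements of SAMP8 WME, 9.54, 9.56, 9.65 and 9.45 in the 4 of SAMP8 LSO, and 8.52 and 8.50 in the 2 of SAMR1 LSO. The 6 SAMP8 measurements lay close together on both diets, and both SAMR1 measurements lay below all of them. SAMP8 LSO levels all above those of SAMR1 were found for 11.6% of measured genes. The strain log2 ratio was 1.13 with SAMP8 in Cy5 and 0.96 with SAMP8 in Cy3, a mean of 1.04 ± 0.12 (SD over 2 arrays), or 2.06-fold. This was the 107th highest ratio of 26937 measured genes. The diet ratio was 0.08 and −0.05, a mean of 0.013 ± 0.095, with opposite signs on the 2 arrays. The signal was well above background in all 8 channel measurements, at 327 to 848 against local backgrounds of 65.5 to 77.5.

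Chat, the enzyme that makes acetylcholine, had 2 probes, and neither was called. The brighter one (A_52_P608523) had levels of 7.61 and 7.42 in SAMP8 WME, 7.58, 7.39, 7.36 and 8.34 in SAMP8 LSO, and 7.40 and 8.19 in SAMR1 LSO. The highest level in each LSO-fed strain came from the same array, the one with SAMP8 in Cy3, and the groups overlapped. The strain ratio was −0.04 and 0.15, a mean of 0.053 ± 0.14, and the diet ratio was 0.035 and 0.03, a mean of 0.033 ± 0.0038. The other Chat probe (A_51_P285243) was above background in 1 of 8 channel measurements, with signals of 71.0 to 90.5 against backgrounds of 67.0 to 92.5, and so gives no ratio here.

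Slc18a3, the transporter that loads acetylcholine into vesicles, was dim and did not separate the RNAs. Its levels were 7.07 and 7.15 in SAMP8 WME, 7.08, 7.15, 7.01 and 7.12 in SAMP8 LSO, and 7.07 and 6.98 in SAMR1 LSO. The groups overlapped throughout. The strain ratio was −0.051 and 0.14, opposite in sign, with a mean of 0.045 ± 0.14, and the diet ratio was −0.0073 and 0.0048. Its signals were 103 to 135 against backgrounds of 65.0 to 80.0, so the offset added in background correction pulls its ratio towards 0 more than that of a bright probe.

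Ache, the esterase that ends the signal, was bright and was not called. Its levels were 12.20 and 12.24 in SAMP8 WME, 12.33, 12.08, 12.05 and 12.24 in SAMP8 LSO, and 12.03 and 12.14 in SAMR1 LSO, and the groups overlapped. The strain ratio was 0.020 and 0.10, a mean of 0.060 ± 0.058, and it turned to −0.0075 under median centring in place of loess. The diet ratio was −0.13 and 0.16, opposite on the 2 arrays.

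**Figure D2:**
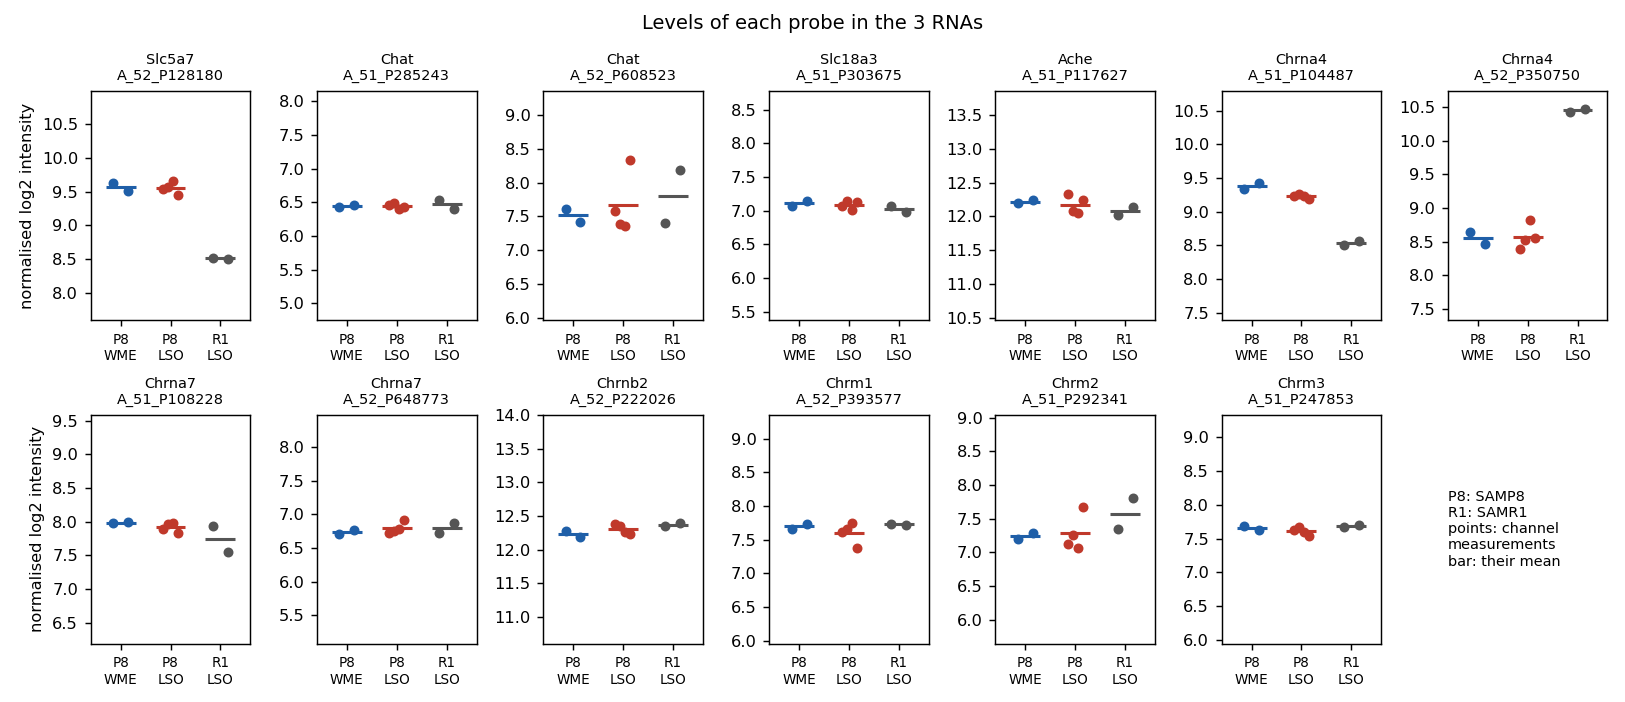
Normalised log2 level of each probe in every channel measurement, grouped as SAMP8 WME (2 measurements), SAMP8 LSO (4) and SAMR1 LSO (2); levels are comparable within a panel only. Slc5a7 and the 2 Chrna4 probes are the panels where SAMP8 and SAMR1 stand clearly apart, with the Chrna4 probes pointing opposite ways.

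The nicotinic subunits were examined next. Chrna4 encodes the alpha subunit that pairs with the product of Chrnb2 in the most widespread high-affinity nicotine receptor of the brain. Its probes disagreed in direction between the strains. The probe A_51_P104487 had levels of 9.34 and 9.42 in SAMP8 WME, 9.23, 9.26, 9.23 and 9.19 in SAMP8 LSO, and 8.50 and 8.56 in SAMR1 LSO. All SAMP8 levels lay above both SAMR1 levels. For 11.6% of measured genes all SAMP8 LSO levels were above those of SAMR1. Its strain ratio was 0.73 and 0.63, a mean of 0.68 ± 0.07, or 1.60-fold, and the smaller of these lay just above the threshold.

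The second Chrna4 probe, A_52_P350750, read the strains the other way round. Its levels were 8.65 and 8.47 in SAMP8 WME, 8.39, 8.53, 8.83 and 8.55 in SAMP8 LSO, and 10.43 and 10.47 in SAMR1 LSO. All 6 SAMP8 levels lay well below both SAMR1 levels. SAMP8 LSO levels all below those of SAMR1 were found for 11.9% of measured genes. The strain ratio was −1.60 and −1.92, a mean of −1.76 ± 0.22, which makes SAMP8 LSO 3.39-fold lower. Both probes were well above background in every channel measurement, so no single direction can be given for Chrna4. Of 34020 measured probes, 0.911% were called higher and 0.52% lower in SAMP8 LSO. The position of either probe in the transcript, and its sequence, were not used here.

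Such opposite calls were uncommon among genes with several probes. In the strain comparison, 4964 genes had 2 or more measured probes and 117 of them had a called probe. In 4 of these genes, including Chrna4, probes were called in opposite directions. The gap between the highest and lowest Chrna4 probe was 2.44 on the log2 scale, the second largest of the 4964, against a median gap of 0.07. In the diet comparison the Chrna4 gap was 0.037, and 0 of 4955 genes had probes called in opposite directions.

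Chrna7 encodes the subunit of the homomeric nicotinic receptor that is blocked by alpha-bungarotoxin. The probe A_51_P108228 had levels of 7.98 and 7.99 in SAMP8 WME, 7.88, 7.96, 7.98 and 7.83 in SAMP8 LSO, and 7.94 and 7.54 in SAMR1 LSO. The SAMR1 measurements lay apart from each other and the groups overlapped. Its strain ratio was 0.046 and 0.28, a mean of 0.16 ± 0.17, and that of the probe A_52_P648773 was 0.061 and 0.043, a mean of 0.052 ± 0.013. Both probes were above 0 on both arrays and neither was called. The probe A_52_P648773 was dim, with signals of 81.0 to 114 against backgrounds of 61.0 to 73.5, so its ratio is pulled towards 0.

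Chrnb2, the beta partner of Chrna4, had a small ratio of the same sign on all 4 arrays. Its levels were 12.27 and 12.20 in SAMP8 WME, 12.39, 12.35, 12.27 and 12.23 in SAMP8 LSO, and 12.34 and 12.39 in SAMR1 LSO. The groups overlapped. The strain ratio was −0.08 and −0.16, a mean of −0.12 ± 0.06, and the diet ratio was −0.11 and −0.15, a mean of −0.13 ± 0.03. The comparisons share SAMP8 LSO, taken here to be 1 RNA, which stands on top of the first ratio and under the second. Neither reached 1.5-fold, and the diet ratio turned to 0.05 under median centring in place of loess, where the median of all genes was 0.066.

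The muscarinic receptors Chrm1, Chrm2 and Chrm3, which couple acetylcholine to G proteins, had mean strain ratios below 0 and none was called. Chrm1, the main excitatory subtype of cortex and hippocampus, had levels of 7.66 and 7.74 in SAMP8 WME, 7.61, 7.65, 7.74 and 7.38 in SAMP8 LSO, and 7.74 and 7.72 in SAMR1 LSO. Its strain ratio was 0.01 and −0.34, opposite in sign, with a mean of −0.17 ± 0.25 that was smaller than its SD.

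Chrm2, an inhibitory subtype found on cholinergic terminals as an autoreceptor, had levels of 7.19 and 7.28 in SAMP8 WME, 7.13, 7.26, 7.06 and 7.68 in SAMP8 LSO, and 7.34 and 7.80 in SAMR1 LSO. As for Chat, the highest level of each LSO-fed strain came from the array with SAMP8 in Cy3. The strain ratio was −0.28 and −0.13, a mean of −0.20 ± 0.11. It was −0.33 with no offset in background correction and −0.43 on the scanner software's processed signals. Its signals were low, at 116 to 240 against backgrounds of 64.5 to 77.0.

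Chrm3, a subtype coupled to Gq, had levels of 7.69 and 7.62 in SAMP8 WME, 7.62, 7.67, 7.60 and 7.54 in SAMP8 LSO, and 7.67 and 7.70 in SAMR1 LSO. The highest SAMP8 LSO level, 7.669, lay just below the lower SAMR1 level, 7.673, and the SAMP8 WME level of 7.69 lay above it. For 11.9% of measured genes all SAMP8 LSO levels were below those of SAMR1. Its strain ratio was −0.07 and −0.16, a mean of −0.12 ± 0.06.

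The signs of the 10 genes in the strain comparison were mixed. Slc5a7, Ache and Chrna7 were above 0 on both arrays, as was Chrna4 by A_51_P104487 but not by A_52_P350750, Chrnb2, Chrm2 and Chrm3 were below 0 on both, and Chat, Slc18a3 and Chrm1 had opposite signs. Of all measured genes, 23.9% were above 0 on both arrays and 26.7% below. The median ratio of the 10 genes was 0.049, against −0.0067 over all measured genes, and it turned to −0.036 when Chrna4 was counted by A_52_P350750. Over all measured genes the median size of the mean ratio was 0.061 and its 90th percentile was 0.20, a size that Chrm2, at −0.20, just reached among the 8 genes not called.

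**Figure D3:**
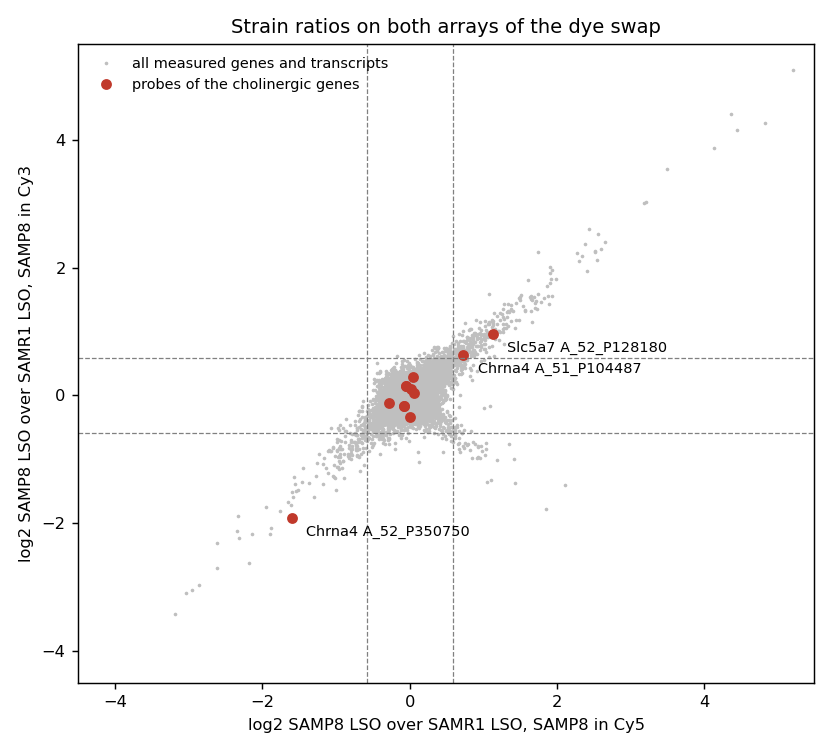
Strain log2 ratio of every measured gene (grey) with SAMP8 in Cy5 on the horizontal axis and SAMP8 in Cy3, sign turned, on the vertical axis, with the cholinergic probes in colour. Slc5a7 (1.13, 0.96) and the Chrna4 probes (0.73, 0.63 and −1.60, −1.92) lie outside the 1.5-fold lines, and the other probes lie within them.

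The genes next to Slc5a7 and Chrna4 on their chromosomes were looked at for a shared difference, in the gene order of GRCm38.p6. Of the 10 nearest measured neighbours of Slc5a7 on chromosome 17, 5 on each side, 0 were called and the mean strain ratios ran between −0.23 and 0.15 with a median of −0.049. Of the 10 nearest neighbours of Chrna4 on chromosome 2, 0 were called and the ratios ran between −0.57 and 0.10 with a median of −0.077. Of all measured genes 0.969% were called higher and 0.494% lower, so 0 of 10 is near that share for either locus. Whether the Slc5a7 difference extends along the chromosome was not tested.

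The genes whose 4 array ratios were most like those of Slc5a7 were found by Euclidean distance over 14599 measured named genes. Predicted loci and clone names among them were passed over. The nearest 5 were Tmem260 at a distance of 0.12, Trim34a at 0.12, Calcrl at 0.14, Nfatc1 at 0.16 and Itgax at 0.17. Calcrl, the receptor component for adrenomedullin and calcitonin gene-related peptide, had a strain ratio of 1.09 ± 0.03. Tmem260 had 1.03 ± 0.19 and Trim34a 1.05 ± 0.25. Nfatc1, a calcium-regulated transcription factor, had 0.97 ± 0.05, and Itgax, the CD11c integrin of myeloid cells, had 1.02 ± 0.05. Their likeness rests on 4 arrays of 3 RNAs and describes these arrays only.

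The diet comparison asked whether the WME supplement moved these genes in SAMP8 brain. None of the 10 genes or 13 probes was called, and the gene ratios ran between −0.13 and 0.14 with a median of 0.024, against 0.0037 over all genes. Chrna4 by A_51_P104487 had the highest mean, at 0.11 and 0.16 on the 2 arrays, a mean of 0.14 ± 0.04. Its 2 SAMP8 WME levels lay above all 4 SAMP8 LSO levels, which held for 6.85% of measured genes. The opposite order, with SAMP8 WME below, held for 5.84% of genes and for 0 of the members, and the second Chrna4 probe had diet ratios of 0.26 and −0.06. Chrna4, Chat, Chrna7, Chrm1 and Chrm2 were above 0 on both arrays and Chrnb2 below, against 20.5% above and 17.6% below over all genes. For Chrna7 this held by A_51_P108228, while its probe A_52_P648773 had −0.021 and 0.0071. Chrm1 had a diet ratio of 0.064 ± 0.024, Chrm2 of 0.043 ± 0.029 and Chrm3 of 0.010 ± 0.083, all under the threshold. The sign of 6 of the 13 probes turned under at least 1 of 3 other scalings, so no direction is given for the set.

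**Figure D4:**
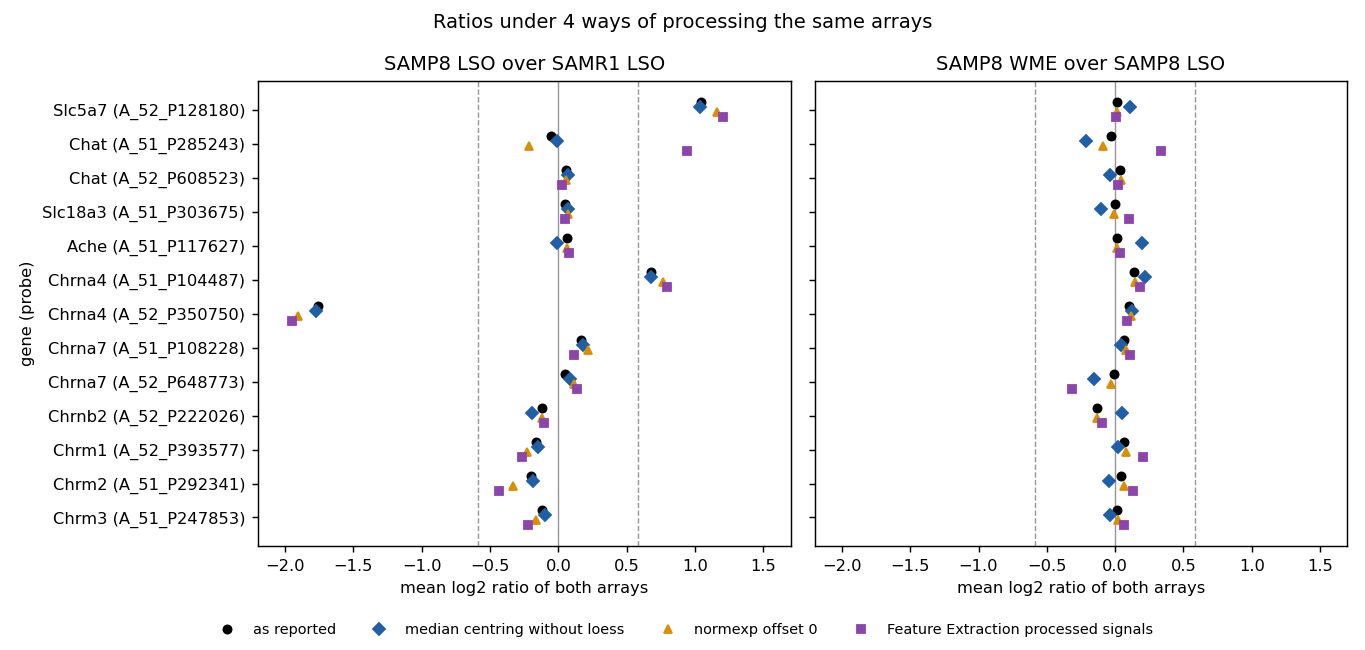
Mean log2 ratio of each probe as reported and under 3 other ways of processing the same arrays, for SAMP8 LSO over SAMR1 LSO and SAMP8 WME over SAMP8 LSO; dashed lines mark 1.5-fold. Slc5a7 stays between 1.04 and 1.20 and the Chrna4 probes keep their opposite signs. In the strain comparison 1 dim Chat probe moves to 0.94 on the processed signals, although it was above background in only 1 of 8 channel measurements.

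The rest of the cholinergic system was read from lists of genes grouped by role. In either comparison 0 genes of any of the 16 lists were called. Over all measured genes 1.46% were called in the strain comparison and 0.0863% in the diet comparison. The gene named from a list is that with the largest mean ratio among those of 1 sign on both arrays, so it need not be typical of its list. Of the other nicotinic subunits, 11 of 13 genes were measured, with a median strain ratio of −0.036. Chrne, the adult muscle epsilon subunit, had −0.21 ± 0.17 by its brighter probe and −0.031 by the other. Receptor assembly factors and modulators, 10 genes, had a median of −0.017, and Vsnl1, a calcium sensor that modulates the alpha4 beta2 receptor, had −0.10 by its brighter probe and 0.017 by the other. The other muscarinic receptors, Chrm4 and Chrm5, had mean ratios of 0.011 and 0.07, each with opposite signs on the 2 arrays.

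Genes of breakdown and of choline supply were read next. Prima1, which anchors acetylcholinesterase at membranes, had a strain ratio of 0.23 ± 0.04, and Bche, a second cholinesterase named after its value was seen, had 0.19 ± 0.05. They were the 2 measured genes of a list of 3, with a median of 0.21. In the diet comparison their median was −0.097 and Bche had −0.17 ± 0.10 by its brighter probe and 0.028 by the other. Of the genes for choline supply and use, 19 of 20 were measured with a median strain ratio of 0.0067, and the organic cation transporter Slc22a2 had 0.22. None of these 19 genes was called, against 1.46% of all measured genes called in either direction, so the count is near that share.

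Markers of the cells that use or surround the system were read beside it. Genes of cholinergic neuron identity, 13 of 14 measured, had a median strain ratio of −0.012, with the substance P receptor Tacr1 at −0.38 ± 0.04 by its brighter probe and −0.028 ± 0.17, with opposite signs on the 2 arrays, by the other. Medial habenula markers had a median of −0.032, with Tac2 at −0.12, vesicle release genes −0.0049, with Slc17a7 at −0.10, and pan-neuronal markers −0.016, with Eno2 at −0.07. Muscarinic signalling genes, 15 in all, had a median of 0.03, and the G protein subunit Gnai1 had 0.22 by its brightest probe and −0.063 to 0.17 by the other 3.

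Of 9 striatal markers, 7 were above 0 on both arrays, with a median of 0.083, Tac1 being largest at 0.14. Over all measured genes 23.9% were above 0 on both arrays and 26.7% below. The median SD between the strain arrays was 0.087, so these ratios were small beside technical error. Hindbrain and cerebellar markers had a median of 0.081, with 6 of 10 above 0 on both arrays, 1 below, and Zic1 at 0.26.

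The glial lists held genes of both signs. Of 6 astrocyte markers, 3 were above 0 and 2 below on both arrays, with a median of 0.066. Gfap, the intermediate filament of astrocytes, had a strain ratio of 0.55 ± 0.21, while Aldh1l1 had −0.058. Of 6 microglia markers, 3 were above and 3 below, with a median of 0.0066, Aif1 at 0.28 and Tmem119 at −0.14. Of 6 oligodendrocyte markers, 2 were above and 1 below, with a median of 0.001, Mag at 0.15 and Mbp, opposite on the 2 arrays, at −0.22. That Mbp value is by its brightest probe. Its other probes had −0.043, with opposite signs, and −0.37, below 0 on both arrays. Of 6 muscle and skin markers, 2 were above and 2 below, with a median of 0.0058, Myl1 at 0.32 and Myh4 at −0.10. Aldh1l1, Tmem119, Mbp and Myh4 were named for the strain comparison after their values were seen. The medians of these, the striatal and the hindbrain lists were all below 0.10, while single genes lay further from 0, such as Gfap at 0.55. The part of these cells and regions in the Slc5a7 ratio was not tested.

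In the diet comparison the lists gave medians between −0.16 and 0.10. The lowest was the hindbrain and cerebellar list, with 7 of 10 genes below 0 on both arrays, against 17.6% of all measured genes. In it Cbln1, a synapse organiser of cerebellar granule cells, had −0.29 ± 0.08. Astrocyte markers had a median of −0.10, with Aldh1l1 at −0.13, and microglia markers of 0.10, with Tmem119 at 0.17. In the strain comparison the hindbrain, astrocyte and microglia medians were 0.081, 0.066 and 0.0066. SAMP8 LSO stands on top of the strain ratio and under the diet ratio, and its part in these diet medians was not tested. The part of these markers in the small diet ratios of the cholinergic genes was not tested either.

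Within the cholinergic lists, the other nicotinic subunits had a median diet ratio of 0.0099, with Chrna5, an accessory subunit, at 0.12. The other muscarinic receptors had a median of −0.0049, with Chrm4 at −0.04, and receptor assembly and modulator genes 0.034, with Ly6e at 0.06. Choline supply genes had a median of 0.0046, with the choline transporter-like gene Slc44a3 at −0.12. Genes of cholinergic neuron identity had 0.011, with the motor neuron factor Mnx1 at 0.07, and habenula markers 0.066, with Gng8, a G protein subunit, at 0.13.

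The remaining diet medians were 0.0091 for muscarinic signalling, with the kinase Prkca at 0.16, and −0.014 for vesicle release, with the glutamate transporter Slc17a7 at 0.10. They were −0.015 for pan-neuronal markers, with Nefl at −0.03, and 0.014 for striatal markers, with Drd1 at 0.15. Oligodendrocyte markers had −0.038, and muscle and skin markers 0.013, with Myl1 at 0.11.

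**Figure D5:**
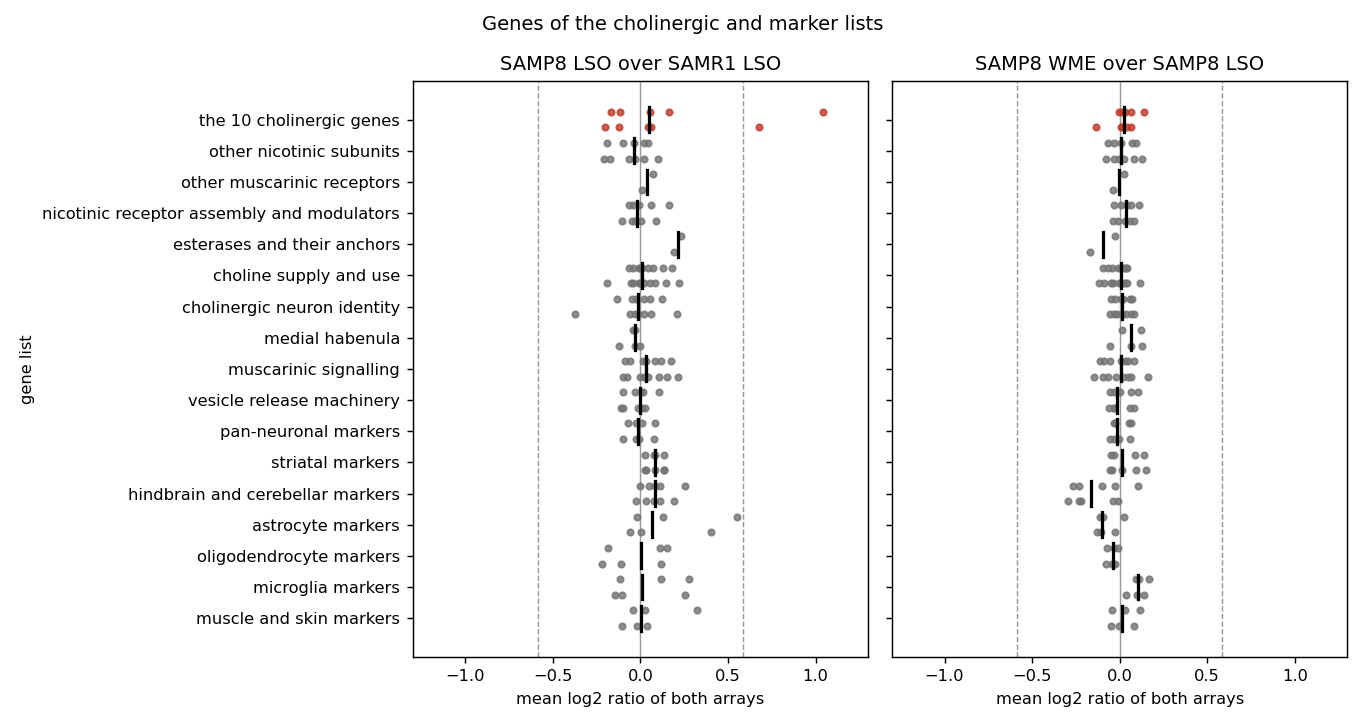
Mean log2 ratio of each measured gene (points) and the median of each list (bar mark) for the 10 cholinergic transmission genes and 16 other lists, in both comparisons; dashed lines mark 1.5-fold. Slc5a7 and Chrna4 are the points beyond a line in the strain comparison, and no point lies beyond one in the diet comparison; Chrna4 is drawn by A_51_P104487 only.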

How the data were processed

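Whole-brain total RNA was measured on 4 Agilent arrays of 1 slide. The deposited scanner files hold spot intensity values, per the file headers, from Agilent Feature Extraction 11.0.1.1 (also named in the submitters' processing notes). Their log10 ratio and the deposited series table's log2 ratio were made by the authors from the processed signals (table against log2 red over green, largest difference 5.0e-09; column medians −0.018, 0.012, 0.0036 and 0.017) and were not otherwise used.

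Median signals were background-corrected (normexp, offset 50) and normalised by loess (span 0.3) in limma 3.58.1 (R 4.3.3), control spots at weight 0 and outlier spots (105 to 123 per array) left out. Spots of a probe were averaged, swapped arrays turned in sign, and levels set after Aquantile. Of 41174 probes, 23374 were named by accession, 10 by symbol and 17790 not. Steps were tested on simulated data. Beside the members, the gene of largest ratio per list among those of 1 sign on both arrays, the 5 genes nearest to Slc5a7 and called chromosome neighbours were named. Members and lists were chosen with earlier results of these data known. The alternatives were a 2-fold threshold, a median over probes, other scalings and leaving out each array.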

Additional observations from a re-analysis of the deposited data

How the results depend on the processing

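The called single probes kept their direction under the other scalings. At a 2-fold threshold on both arrays, 0 of the 10 genes and 1 probe, the lower Chrna4 probe, were called in the strain comparison, against 2 genes and 3 probes at 1.5-fold. With the median over a gene's probes, 1 gene, Slc5a7, was called, and Chrna4 turned from 0.68 to −0.54. Counted by the probe brightest on the strain arrays, an alternative chosen after seeing the data, 1 gene was higher and 1, Chrna4, lower. Leaving out either array left 2 to 2 genes and 3 to 3 probes called in the strain comparison and 0 to 0 in the diet comparison. A call needs both arrays, so no call could be lost this way. Of 78 single-probe values under 3 other scalings, 46 moved by less than 1 SD over arrays and 32 by more. Over all genes, the processed signals called 473 higher and 282 lower in the strain comparison and 63 and 39 in the diet comparison, against 261 and 133, and 15 and 8, as reported. With normexp offset 0 the counts were 384 and 193, and 21 and 9. The cause was not tested. No paired analysis was possible because each group was taken to be 1 RNA. The number of arrays limits the precision, and the dim probes of Slc18a3, Chat and Chrna7 lay near background.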

Other observations

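Besides Chrna4, 3 genes had probes called in opposite directions between SAMP8 LSO and SAMR1 LSO, and they are named after their values were seen. Isoc1 had probe ratios of −1.15 and 0.79, Gpatch11 of −0.98 and 0.68, and Krr1 of −0.90 and 0.66.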
